A study of Mus musculus with 9 samples.

Results

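The Krüppel-like factors are zinc finger transcription factors, and the 10 family members described here (Klf2, Klf3, Klf4, Klf5, Klf6, Klf9, Klf10, Klf11, Klf13 and Klf16) were chosen by gene name from a table of RNA-Seq counts for 15384 genes. The table came from MyC-CaP, a prostate cancer cell line derived from a tumor of a mouse with a MYC transgene expressed in the prostate, and the results describe that line alone. Cells were starved of serum and calcium and then received 100 ng/mL of recombinant mouse ASPN (asporin), a small leucine-rich proteoglycan secreted by stromal fibroblasts, and RNA was collected at 0, 12 and 24 hours. Each time had 3 libraries, which the labels call biological replicates and which came from cells plated in triplicate wells, so p-values measured the spread between such wells. The labels gave ASPN as the treatment of the 0-hour libraries too. No library of cells kept for 12 or 24 hours without ASPN was among the 9, and the action of ASPN and the hours in culture after starvation cannot be told apart in any comparison with time 0.

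Krüppel-like factors share 3 C2H2 zinc fingers near the carboxyl end, with which they bind GC boxes and CACCC boxes in promoters, and differ in the amino-terminal part that recruits cofactors. Klf2, Klf4, Klf5 and Klf6 form a group of mostly activating factors that bind the acetyltransferases p300 and CBP. Klf3, with Klf8 and Klf12, binds the corepressor CtBP, and Klf9, Klf10, Klf11, Klf13 and Klf16 bind the corepressor SIN3A. In epithelium, Klf4 is linked to differentiation and Klf5 to proliferation, KLF6 has been described as a tumor suppressor in prostate cancer, and Klf10 and Klf11 were first described as early genes of TGF-beta signaling.

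The 10 genes lie on 10 different chromosomes of GRCm38. Klf2 (ENSMUSG00000055148.7) was annotated at chr8:72319033-72321656 on the plus strand, Klf9 (ENSMUSG00000033863.2) at chr19:23141226-23168134 on the plus strand, Klf13 (ENSMUSG00000052040.10) at chr7:63886351-63938915 on the minus strand and Klf10 (ENSMUSG00000037465.10) at chr15:38291463-38300706 on the minus strand. Klf3 (ENSMUSG00000029178.14) was annotated at chr5:64803388-64832901 on the plus strand, and 404 of its exon bases (3.59%) were shared with Gm20033 on the opposite strand. The counting strand is not given in the sources used here, so reads from those bases cannot be assigned to one of the 2 genes. No other member shared exon bases with another gene, and at most 0.35% of the 50-base words of any member occurred in another gene.

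RefSeq promoter entries (GRCm38.p6) matched 7 of the 10 members by symbol: Klf2, Klf3, Klf4, Klf6, Klf9, Klf11 and Klf13. The 221 bases from 250 to 30 bases upstream of the RefSeq start were read in the direction of transcription. RefSeq places this start at the first base of the gene in the table for Klf9 and Klf13, 29 bases downstream of it for Klf2, 133 for Klf3, 97 for Klf11 and 7 for Klf6, and 9 bases upstream of it for Klf4, so the windows of Klf3 and Klf11 reach past that base. The sequences below are those of the 3 members with an entry that fell at 24 hours (Klf2, Klf9, Klf13) and of Klf4, which did not pass the test. Capitals mark the GC box (GGGCGG), the CACCC box and the MEF2-type motif, each searched on both strands. That motif is CTA and TAG with any 4 bases between them.
Klf2 (chr8:72318812-72319032, plus strand): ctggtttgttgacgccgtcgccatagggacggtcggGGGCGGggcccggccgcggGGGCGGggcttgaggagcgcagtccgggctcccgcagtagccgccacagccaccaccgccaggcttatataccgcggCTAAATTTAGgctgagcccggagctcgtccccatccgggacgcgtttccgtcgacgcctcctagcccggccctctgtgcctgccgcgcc
Klf9 (chr19:23140976-23141196, plus strand): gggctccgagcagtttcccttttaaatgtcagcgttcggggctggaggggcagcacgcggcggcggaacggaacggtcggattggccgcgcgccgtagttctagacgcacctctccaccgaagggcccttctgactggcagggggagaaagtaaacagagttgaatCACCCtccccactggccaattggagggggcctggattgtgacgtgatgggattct
Klf13 (chr7:63938945-63939165, minus strand): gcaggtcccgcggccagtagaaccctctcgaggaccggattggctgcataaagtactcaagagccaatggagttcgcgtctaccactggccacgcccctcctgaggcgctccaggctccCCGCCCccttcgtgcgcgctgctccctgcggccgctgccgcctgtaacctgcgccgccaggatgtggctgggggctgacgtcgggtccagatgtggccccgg
Klf4 (chr4:55532505-55532725, minus strand): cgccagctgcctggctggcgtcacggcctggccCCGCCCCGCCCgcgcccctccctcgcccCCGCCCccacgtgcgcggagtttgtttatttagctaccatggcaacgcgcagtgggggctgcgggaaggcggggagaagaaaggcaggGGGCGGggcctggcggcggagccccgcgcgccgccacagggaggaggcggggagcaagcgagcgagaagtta
The GC box, which the family itself can bind, was found in 6 of the 7 member windows (all but that of Klf9) and in 28.7% of 32841 promoter windows of the same length. The GC content of the 7 windows was 61.1% (Klf9) to 79.2% (Klf3), and the share of all windows was not matched for GC content. CACCC was found in 2 of the 7 (Klf3 and Klf9) and in 48% of all windows. The only MEF2-type motif among the 7 lay in the window of Klf2, beginning 118 bases before the RefSeq start and 89 before the first base of the gene in the table, and 2.86% of all windows held that motif. TGANTCA (an AP-1 type site) was found in Klf9 alone and in 6.13% of all windows, and CACGTG (an E box) in Klf4, Klf6 and Klf11 and in 5.02% of all windows. TGACGTCA (1.16% of all windows) and AGAACA, a half-site of the glucocorticoid receptor (14.4%), were not among the letters of the 7 windows. These matches describe sequence alone, and binding was not measured.

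The counts of a library totaled 41881191 to 52993821 (median 44779129), and 3 counts of a gene corresponded to 0.0566 to 0.0716 CPM, the count of a gene scaled to a common library total. TMM factors, which correct for a few genes taking much of a library, were 1.037 to 1.068 at 0 hours, 1.038 to 1.049 at 12 hours and 0.899 to 0.914 at 24 hours. Counts of libraries of the same time differed by more than sampling noise in all 9 pairs (chi-square divided by its degrees of freedom, 3.41 to 17.5). The labels call the cells epithelial-like prostate cancer cells. The prostate marker Hoxb13 was at a mean of 71.9 CPM at 0 hours and the keratin gene Krt8 at 25.5 CPM, whereas Epcam (0 to 1 counts in a library), Cdh1 (0 to 10 counts), Krt18 (2 to 22 counts) and Pbsn (0 to 6 counts) were at or near 0. In the edgeR test described below, Hoxb13 and Krt8 were higher at 24 hours than at time 0, by less than 1.5-fold. Their log2 changes were 0.43 ± 0.06 (adjusted p = 1.2e-05) and 0.58 ± 0.09 (adjusted p = 3.6e-05). Krt18 was higher at 24 than at 12 hours (log2 change 1.72 ± 0.52; adjusted p = 0.0096). Of the fibroblast markers, Col1a1 had 0 to 8 counts, Pdgfra was at 12.7 to 13.8 CPM at time 0 and 8.55 to 9.61 CPM at 24 hours, and Dcn (7 to 29 counts) had a log2 change of 1.20 ± 0.49 at 24 hours (adjusted p = 0.044) with overlapping libraries. Their part in the values of the members was not tested.

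All 10 members were measured well enough to be tested in each comparison. The test was the quasi-likelihood test of edgeR, with p-values adjusted over all tested genes by the Benjamini-Hochberg method, and "rose" and "fell" are used for genes with an adjusted p of 0.05 or less and a change of at least 1.5-fold. The comparisons of 12 and of 24 hours with time 0 used the same 3 time 0 libraries and are not independent. After 12 hours, 0 of the 10 members passed, beside 1.60% of 11410 genes tested. DESeq2 and limma-voom also called 0 members. In the edgeR test 4 members had an adjusted p of 0.05 or less at any fold, beside 10.3% of all genes. After 24 hours, 4 of the 10 passed: Klf10 rose, and Klf2, Klf9 and Klf13 fell, beside 28.8% of 11444 genes tested (12.0% higher and 16.8% lower). Between 12 and 24 hours, 3 passed, all of them lower (Klf2, Klf3 and Klf13), beside 25.7% of 11394 genes (10.4% higher and 15.3% lower). The share of members that passed at 24 hours was thus near that of all genes. The median log2 fold change of the members was 0.05 at 12 hours and -0.09 at 24 hours against time 0, and -0.21 from 12 to 24 hours. The medians of all tested genes were -0.00487, -0.0164 and 0.00386, respectively.

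**Figure D1:**
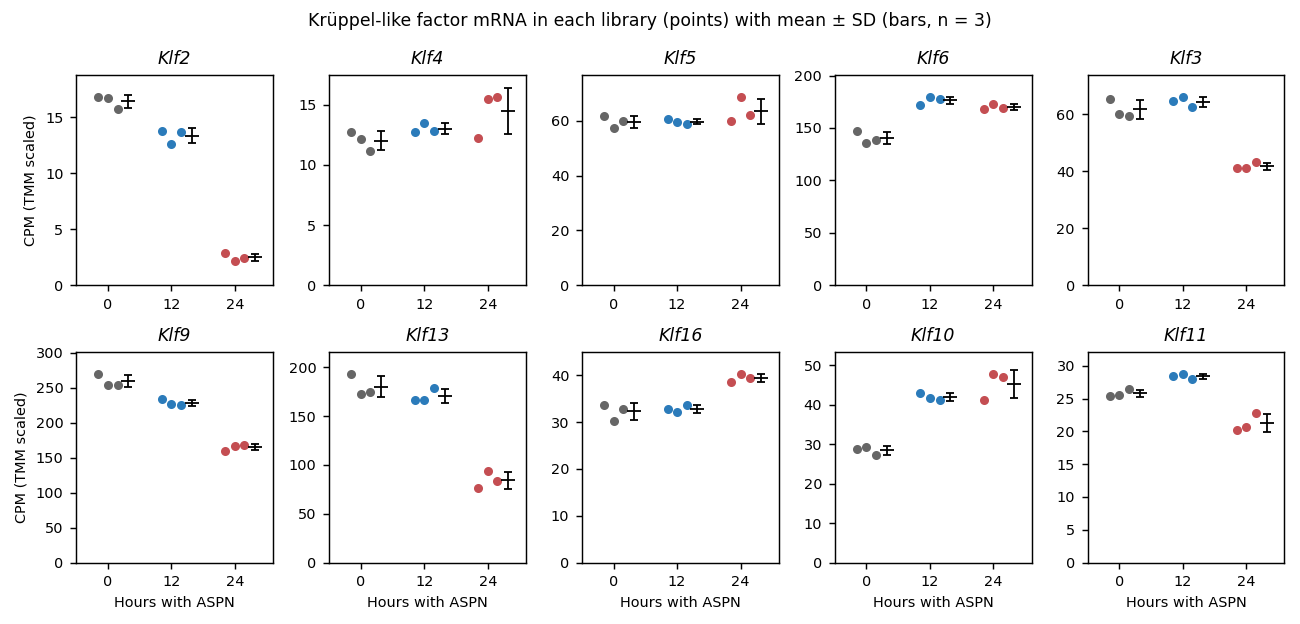
TMM-scaled CPM (y axis, from 0) of each member at 0, 12 and 24 hours (x axis), with 1 point per library and the mean ± SD (n = 3) in black. The 24-hour points of Klf2 (2.22 to 2.86 CPM) sit far below those of the other times, Klf13 and Klf9 step down at 24 hours, and the Klf10 points are above time 0 at both later times.

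Among the activating members, Klf2 fell more than any other member at 24 hours. Klf2, which in endothelium and lymphocytes maintains quiescence and is induced through ERK5 and MEF2, was at 16.8, 16.7 and 15.7 CPM in the libraries of time 0. It was at 13.8, 12.6 and 13.7 CPM at 12 hours and at 2.86, 2.22 and 2.41 CPM (107 to 117 counts) at 24 hours. The 3 times did not overlap. Its log2 fold change at 24 hours was -2.72 ± 0.11 (SE, 6.58-fold lower; adjusted p = 2.5e-10), and 0.275% of all tested genes had a lower value. Most of the difference lay after 12 hours: the log2 change was -0.29 ± 0.07 (1.22-fold; adjusted p = 0.0095) in the first interval, under the 1.5-fold limit, and -2.41 ± 0.11 (5.30-fold; adjusted p = 5.6e-10) in the second. Without the second 12-hour library, the adjusted p of the first interval was 0.073, and it was 0.0021 to 0.034 under the other processing alternatives. Markers of the endothelium, a cell type rich in Klf2, were near 0 in the 9 libraries: Pecam1 had 1 to 6 counts, Cdh5 0 to 1 and Tek 0 to 4. The leukocyte markers Cd3e (0 to 1 counts), Itgam (0 to 1), Cd79a (1 to 6) and Cd68 (12 to 37) were also low.

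Klf4, Klf5 and Klf6 did not pass both limits at either time. Klf4, a differentiation factor that is also one of the reprogramming factors, was at 12.8, 12.1 and 11.2 CPM at time 0, at 12.8, 13.5 and 12.8 CPM at 12 hours and at 12.2, 15.5 and 15.6 CPM at 24 hours. The first 24-hour library lay within the range of time 0 and the other 2 above it. The log2 change at 24 hours was 0.27 ± 0.10 (1.21-fold; adjusted p = 0.027), and the adjusted p was 0.0017 to 0.12 when libraries were left out in turn: 0.0017 without the first 24-hour library, 0.091 and 0.12 without either of the others, and 0.080 without replicate 3 of time 0. The log2 change was 0.051 with total-count scaling (adjusted p = 0.66) and 0.40 with length and GC offsets (adjusted p = 0.0010), the ends of the range over the alternatives. Klf5, a factor of proliferating epithelium, had a fitted fold of 1.00 at 12 hours and 1.07 at 24 hours. It was at 57.4 to 61.7 CPM at time 0, 58.7 to 60.5 CPM at 12 hours and 59.8 to 68.6 CPM at 24 hours, with overlapping ranges throughout. Its log2 change was 0.0034 ± 0.038 at 12 hours (adjusted p = 0.98) and 0.097 ± 0.055 at 24 hours (adjusted p = 0.13). The sign of each was negative with total-count scaling (-0.016 at 12 and -0.12 at 24 hours).

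Klf6 differed from time 0 early, by less than 1.5-fold. Klf6, an injury-responsive factor that can induce Cdkn1a, was at 147, 136 and 138 CPM at time 0, at 172, 179 and 177 CPM at 12 hours and at 168, 173 and 169 CPM at 24 hours. All 6 later libraries were above the 3 of time 0, and those of 12 and 24 hours overlapped. The log2 change was 0.33 ± 0.04 at 12 hours (1.26-fold; adjusted p = 6.1e-06), higher than that of 94.7% of tested genes. At 24 hours it was 0.28 ± 0.04 (adjusted p = 5.4e-05), and 0.057 with total-count scaling (adjusted p = 0.21; 4.2e-08 to 0.21 over the alternatives). Between 12 and 24 hours it was -0.03 ± 0.03 (adjusted p = 0.43), and -0.25 with total-count scaling (adjusted p = 1.7e-05; 1.7e-05 to 0.87 over the alternatives).

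Klf3, the CtBP-binding repressor, was close to the 1.5-fold limit. It was at 65.5, 60.3 and 59.5 CPM at time 0, at 64.6, 66.1 and 62.6 CPM at 12 hours and at 41.2, 41.1 and 43.2 CPM at 24 hours. The 24-hour libraries were below all others, and those of 0 and 12 hours overlapped. From 12 to 24 hours Klf3 fell by 0.60 on the log2 scale (SE 0.044; 1.52-fold; adjusted p = 4.7e-08), and against time 0 its log2 change was -0.56 ± 0.05 (1.47-fold; adjusted p = 4.8e-07), just short of the limit. Without the second 12-hour library the change from 12 to 24 hours was -0.58, also just short, as it was with upper-quartile factors (-0.58) and with length and GC offsets (-0.52). With total-count scaling Klf3 was past the limit, at -0.82 from 12 to 24 hours and -0.78 against time 0. At 12 hours the change with TMM factors was 0.07 ± 0.04 (adjusted p = 0.42).

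The SIN3A-binding repressors diverged from each other. Klf13, a factor of lymphocytes and heart development, fell at 24 hours. It was at 193, 173 and 175 CPM at time 0, at 167, 166 and 179 CPM at 12 hours and at 76.1, 93.2 and 83.5 CPM at 24 hours. The 24-hour libraries were far below the other 6, which overlapped. The log2 change was -1.09 ± 0.07 against time 0 (2.13-fold; adjusted p = 9.0e-09) and -0.99 ± 0.06 against 12 hours (1.99-fold; adjusted p = 7.7e-09), after -0.07 ± 0.04 at 12 hours (adjusted p = 0.37). When the counts were corrected for transcript length and GC content, the 2 differences at 24 hours were -0.55 and -0.46, under the 1.5-fold limit, although the adjusted p-values stayed at 4.0e-08 and 2.4e-07. The longest transcript of Klf13 has a length of 6.396 kilobases and 55.5% GC.

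Klf9, a factor induced by thyroid hormone and by glucocorticoids, had the highest level of the 10 members per length at time 0 and fell at 24 hours. It was at 269, 255 and 254 CPM at time 0, at 234, 227 and 225 CPM at 12 hours and at 160, 167 and 169 CPM at 24 hours. The 3 times did not overlap, and each was lower than the one before. The log2 change was -0.18 ± 0.03 at 12 hours (1.13-fold; adjusted p = 0.0018) and -0.65 ± 0.04 at 24 hours (1.56-fold; adjusted p = 1.6e-08), and -0.44 ± 0.04 between the 2 (adjusted p = 1.2e-07). With the correction for length and GC content, the change at 24 hours was -0.54 and under the limit.

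Klf10, also known as TIEG1, was the only member that rose. It was at 28.9, 29.2 and 27.2 CPM at time 0, at 43.1, 41.7 and 41.2 CPM at 12 hours and at 41.3, 47.8 and 47.1 CPM at 24 hours. All 6 later libraries were above time 0, and those of 12 and 24 hours overlapped. The log2 change at 12 hours was 0.57 ± 0.05 (1.48-fold; adjusted p = 1.6e-07), just short of the limit and higher than that of 97.6% of tested genes. At 24 hours it was 0.68 ± 0.06 (1.60-fold; adjusted p = 4.7e-07), higher than that of 90.3% of genes, and with total-count scaling 0.46, short of the limit. Between 12 and 24 hours the log2 change was 0.14 ± 0.06 (adjusted p = 0.043), which was -0.086 with total-count scaling.

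Klf11 (TIEG2), the closest relative of Klf10, was lower at 24 hours, short of the 1.5-fold limit. It was at 25.3, 25.6 and 26.4 CPM at time 0, at 28.5, 28.7 and 28.0 CPM at 12 hours and at 20.2, 20.7 and 22.8 CPM at 24 hours. The 3 times did not overlap, with 12 hours highest and 24 hours lowest. Its log2 change was 0.14 ± 0.05 at 12 hours (adjusted p = 0.064), -0.28 ± 0.06 at 24 hours against time 0 (adjusted p = 0.0016) and -0.40 ± 0.06 from 12 to 24 hours (adjusted p = 4.0e-05). The change at 24 hours against time 0 was -0.15 with length and GC offsets (adjusted p = 0.063 with the replicate block added) and -0.50 with total-count scaling (adjusted p of 1.4e-05 to 0.063 over the alternatives). From 12 to 24 hours it was -0.62 and past the limit with total-count scaling. Klf16, a GC-box repressor first described at dopamine receptor genes, was at 30.4 to 33.8 CPM at time 0, 32.1 to 33.8 CPM at 12 hours and 38.7 to 40.2 CPM at 24 hours. Only its 24-hour libraries stood apart, with a log2 change of 0.29 ± 0.06 against time 0 (1.23-fold; adjusted p = 0.00033), of 0.07 with total-count scaling (adjusted p = 0.25; 7.8e-07 to 0.25 over the alternatives) and of 0.50 with length and GC offsets.

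**Figure D2:**
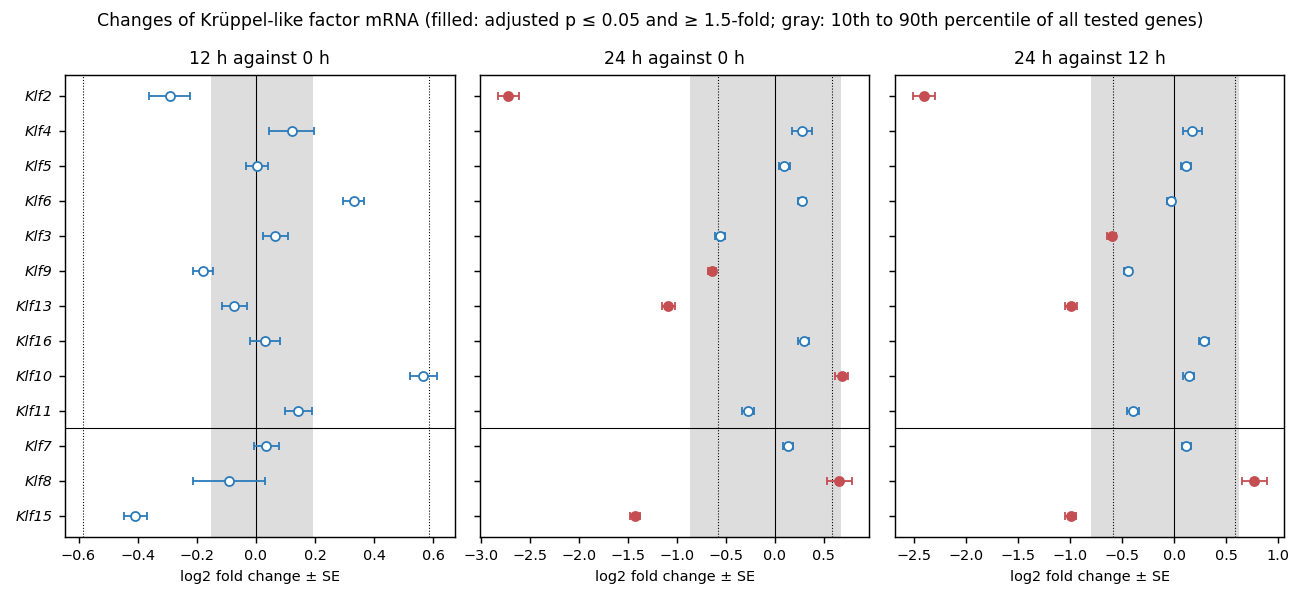
Log2 fold change ± SE (x axis) of the 10 members and, under the line, of Klf7, Klf8 and Klf15, in 3 panels for 12 hours against 0, 24 hours against 0 and 24 against 12 hours. Filled points passed both limits, dotted lines mark 1.5-fold and the gray band spans the 10th to the 90th percentile of all tested genes. No point is filled at 12 hours, and Klf2 at -2.72 lies farthest from 0 at 24 hours.

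Without regard to the size of the change, an adjusted p of 0.05 or less was reached by 4 members at 12 hours (Klf6 and Klf10 higher, Klf2 and Klf9 lower), beside 10.3% of all genes (6.85% higher, 3.47% lower). At 24 hours it was reached by 9 members (4 higher, 5 lower), beside 70.9% of all genes (34.4% higher, 36.5% lower). Between 12 and 24 hours it was reached by 7 (2 higher, 5 lower), beside 71.3% (35.7% higher, 35.6% lower). The libraries of 12 hours and time 0 did not overlap for 5 members (3 higher, 2 lower), beside 27.0% of all genes (13.4% higher, 13.6% lower). Those of 24 hours and time 0 did not overlap for 8 (3 higher, 5 lower), beside 73.9% (35.6% higher, 38.3% lower), and those of 24 and 12 hours for 6 (1 higher, 5 lower), beside 73.9% (35.5% higher, 38.5% lower). The first 24-hour library was the lowest of its time for 8 of the 10 members (and the highest for Klf2), and the first library of time 0 was the highest of its time for 8 of the 10. Without that 24-hour library the same 4 members passed against time 0.

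**Figure D3:**
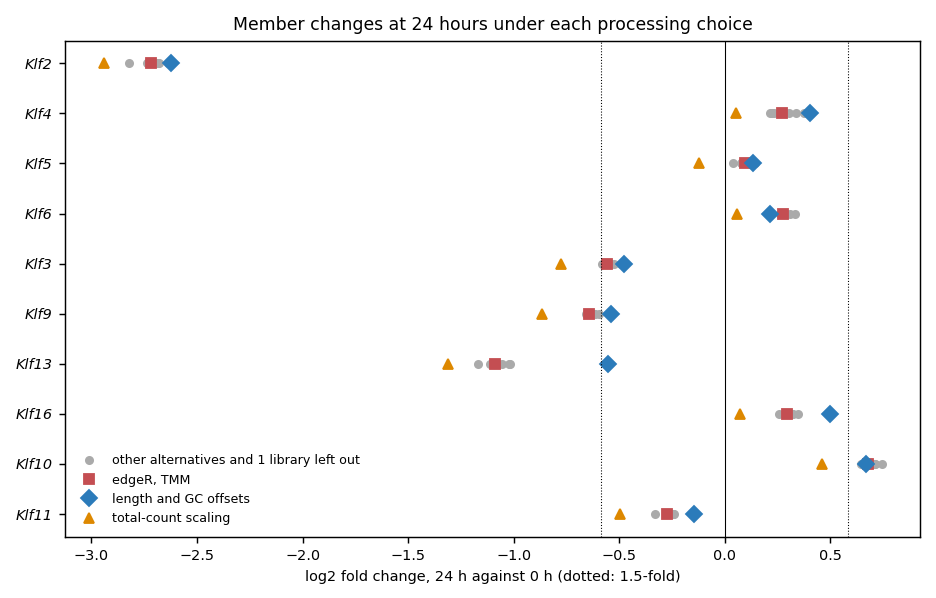
Log2 fold change at 24 hours against time 0 (x axis) of each member under every processing choice: edgeR with TMM (squares), length and GC offsets (diamonds), total-count scaling (triangles), other alternatives and 1 library left out (gray points), with dotted lines at 1.5-fold. Klf2 stays between -2.94 and -2.62, the diamonds of Klf13 (-0.55) and Klf9 (-0.54) lie inside the limit, as does the triangle of Klf10 (0.46), and the triangle of Klf5 (-0.12) lies below 0.

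To compare the members with each other, CPM were divided by the kilobases of the union of a gene's exons. At time 0 the order was led by Klf9 at 53.9 ± 1.8 CPM per kilobase (SD, n = 3), followed by Klf6 at 32.02 ± 1.4 and Klf13 at 23.9 ± 1.5. Klf16 (12.1 ± 0.66) and Klf5 (11.5 ± 0.41) came next, and their libraries overlapped. Klf2 (8.89 ± 0.32), Klf10 (6.81 ± 0.26), Klf11 (5.94 ± 0.13), Klf3 (5.49 ± 0.29) and Klf4 (3.95 ± 0.26) followed without overlap between neighbors. At 12 hours Klf10 was at 10.04 ± 0.23 and Klf2 at 7.24 ± 0.35, and no neighbors overlapped. The middle of the order depended on the length used. Per kilobase of the longest transcript, Klf3 was 2.15-fold, Klf5 1.55-fold and Klf10 1.37-fold higher than per kilobase of the exon union. At time 0 this placed Klf5 (17.8 ± 0.63) above Klf16, Klf3 (11.8 ± 0.62) level with Klf16 within overlapping libraries, and Klf10 (9.35 ± 0.35) beside Klf2 (8.89 ± 0.32), again with overlap. Klf9, Klf6 and Klf13 led with either length at 0 and 12 hours.

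At 24 hours Klf6 was first at 38.7 ± 0.57 CPM per kilobase and Klf9 second at 34.3 ± 1.0, with no overlap, in the reverse of their order at the earlier times. Klf16 (14.8 ± 0.29) followed. Klf5 (12.2 ± 0.88), Klf13 (11.2 ± 1.1) and Klf10 (10.9 ± 0.85) came next, and in this stretch neighboring genes overlapped, as did Klf11 (4.89 ± 0.32) and Klf4 (4.74 ± 0.63). Klf3 was at 3.72 ± 0.11, and Klf2 was last at 1.35 ± 0.18. With the longest transcript Klf6, Klf9 and Klf2 kept the first, the second and the last place, whereas Klf5 (18.95 ± 1.4) and Klf10 (14.9 ± 1.2) stood above Klf16 (Klf10 with overlap) and Klf3 (8.01 ± 0.23) above Klf11. Summed over the 10 members, the level was 164.4 ± 6.07 CPM per kilobase at time 0, 167.8 ± 0.563 at 12 hours and 136.7 ± 4.94 at 24 hours. The 24-hour sums (131.2 to 140.8) did not overlap the others. Of this sum, Klf9 made up 32.8% at time 0 and 25.1% at 24 hours, Klf6 19.5% and 28.3%, Klf13 14.5% and 8.17%, Klf10 4.14% and 7.94%, and Klf2 5.41% and 0.991%. These are shares of mRNA level, with no measure of protein.

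**Figure D4:**
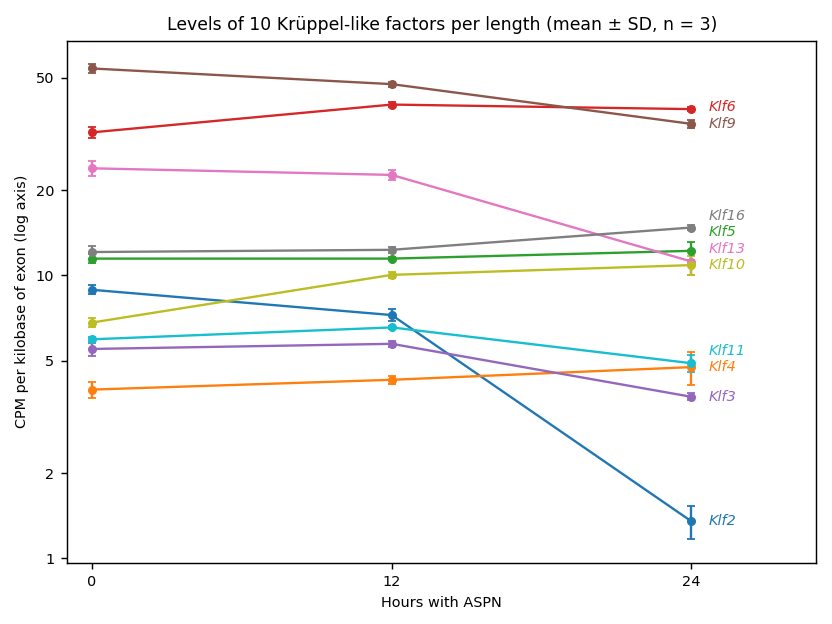
CPM per kilobase of exon (y axis, log scale) of the 10 members at 0, 12 and 24 hours (x axis), as mean ± SD of 3 libraries joined by lines. Klf6 and Klf9 cross between 12 and 24 hours, and Klf2 drops from 8.89 at time 0 to 1.35, the lowest of the 10.

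In the gene groups around the family, counts at 24 hours stand beside the 12.0% of all tested genes that rose and the 16.8% that fell. The lists are short and were chosen with earlier results of these data known. Of the other Klf genes, 4 were tested at 24 hours, of which 1 rose and 1 fell. Klf15, a glucocorticoid-induced regulator of amino acid and lipid metabolism, was at 84.0 to 89.3 CPM at time 0, 61.7 to 67.2 CPM at 12 hours and 29.98 to 33.16 CPM at 24 hours, with no overlap. It fell at 24 hours with a log2 change of -1.43 ± 0.05 (2.69-fold; adjusted p = 1.3e-10), and the change at 12 hours was -0.41 ± 0.04 (1.33-fold; adjusted p = 1.5e-06). Klf8, a CtBP-binding relative of Klf3, was at 3.64 to 4.42 CPM at time 0 and rose to 5.45 to 6.85 CPM at 24 hours, with a log2 change of 0.66 ± 0.13 (adjusted p = 0.00042), which was 0.44 and short of the limit with total-count scaling. Klf7, a factor of neuronal development, was at 46.8 to 51.3 CPM at time 0 and 52.2 to 55.1 CPM at 24 hours (log2 change 0.13 ± 0.05; adjusted p = 0.034), and 39.4% of its exon bases were shared with Gm13748 and Gm26649 on the opposite strand, whose reads cannot be told apart from its own if strand was not used in counting. Klf1, the erythroid factor, had 8 to 32 counts in a library, and Klf12 had 2 to 16 at time 0 and 0 in each of the 24-hour libraries, which allows up to 3 counts. Among the SP factors, the sister family that binds the same GC boxes, 1 of 5 tested rose (Sp4, log2 change 0.85 ± 0.08) and 1 fell (Sp8, -1.11 ± 0.05). Klf14 and Klf17 were not analysed here.

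The cofactors of the family were mostly within 1.5-fold of time 0. Of 10 genes for corepressors and coactivators, 0 rose and 2 fell at 24 hours, beside 12.0% and 16.8% of all genes, and these were both coactivators of the Klf2, Klf4, Klf5 and Klf6 group. Ep300 (p300) was at 126 to 135 CPM at time 0 and 53.4 to 58.2 CPM at 24 hours, and its log2 change was -1.23 ± 0.05 (adjusted p = 2.2e-10). Crebbp (CBP) was at 60.2 to 61.4 CPM and 28.8 to 31.5 CPM, with a log2 change of -1.02 ± 0.05 (adjusted p = 1.5e-09). With the correction for length and GC content these were -0.86 and -0.59, still past the limit. Genes for CtBP, SIN3 and HDAC proteins were among the 8 that did not pass.

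Ubiquitin ligases that have been described to act on family members were called in both directions, with 1 of 8 higher and 2 lower, beside 12.0% and 16.8% of all genes. Fbxw7, whose product recognizes phosphorylated Klf2 and Klf5, was at 63.9 to 65.2 CPM at time 0 and 16.2 to 17.0 CPM at 24 hours (log2 change -1.95 ± 0.05; adjusted p = 6.9e-12). Siah1a, a RING-type ligase described for Klf10, fell with a log2 change of -0.86 ± 0.08, and Smurf2, a HECT-type ligase of SMAD signaling, rose with 0.65 ± 0.05 (0.43 and short of the limit with total-count scaling).

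Upstream of the family, 0 of 6 tested genes of the ERK5 and MEF2 pathway, which induces Klf2 and Klf4, passed both limits at 24 hours. The test was edgeR's quasi-likelihood test, in which 28.8% of all genes passed. Without the fold limit, 1 was higher and 3 were lower at an adjusted p of 0.05 or less, beside 34.4% and 36.5% of all genes. These were Map3k2 (log2 change 0.54 ± 0.06), the ERK5 gene Mapk7 (-0.48 ± 0.08), Mef2d (-0.47 ± 0.05) and Mef2a (-0.11 ± 0.04). Of 8 genes of TGF-beta and SMAD signaling, which induces Klf10 and Klf11, 2 rose and 0 fell, beside 12.0% and 16.8% of all genes. The ligand Tgfb1 was at 36.3 to 41.8 CPM at time 0, 55.1 to 57.3 CPM at 12 hours and 61.2 to 70.7 CPM at 24 hours (log2 change at 24 hours 0.76 ± 0.06, and 0.54, short of the limit, with total-count scaling). The inhibitory Smad7 rose with a log2 change of 0.84 ± 0.10 (adjusted p = 4.0e-06). Without the fold limit, 5 of the 8 were higher and 2 lower at an adjusted p of 0.05 or less, beside 34.4% and 36.5% of all genes. The 2 lower were the receptor genes Tgfbr1 (log2 change -0.31 ± 0.07) and Tgfbr2 (-0.50 ± 0.06). The median log2 change of these 8 genes was 0.36 at 24 hours against time 0, beside -0.0164 for all genes. From 12 to 24 hours it was 0.078, beside 0.00386.

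Glucocorticoid receptor targets were chosen because the receptor induces Klf9 and Klf15. Of 6 tested targets, 5 fell and 1 rose at 24 hours, beside 16.8% and 12.0% of all genes. The list was drawn up with earlier results of these data known, so this comparison is not an independent test. Those that fell were the kinase gene Sgk1 (log2 change -1.07 ± 0.05), Tsc22d3 (-0.89 ± 0.04), Per1 (-0.89 ± 0.06), Zbtb16 (-0.79 ± 0.05) and Fkbp5 (-0.70 ± 0.05). Fkbp5, a cochaperone of steroid receptors, was at 776 to 812 CPM at time 0 and 453 to 508 CPM at 24 hours. Under the correction for length and GC content Fkbp5 (-0.52), Per1 (-0.47) and Zbtb16 (-0.41) were short of the limit, and Sgk1 and Tsc22d3 passed. Dusp1, a phosphatase that is also an immediate early gene of MAP kinase signaling, rose (2.31 ± 0.06). The part of the receptor in the Klf9 and Klf15 values was not tested.

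Among 5 genes that family members have been described to control, 1 rose and 1 fell, beside 12.0% and 16.8% of all genes. Cdkn1a (p21), which Klf4 and Klf6 can activate, was at 32.5 to 32.9 CPM at time 0, 30.1 to 34.8 CPM at 12 hours and 84.6 to 120 CPM at 24 hours (log2 change 1.62 ± 0.10; adjusted p = 6.6e-09). Ccnd1 (cyclin D1), which Klf5 can activate, was at 232 to 239 CPM at time 0 and 141 to 164 CPM at 24 hours (log2 change -0.61 ± 0.05; adjusted p = 1.6e-07), and short of the limit without the first 24-hour library (-0.56), with upper-quartile factors (-0.58) and with length and GC offsets (-0.46). Of 52 genes tested in these 8 lists, 0 passed at 12 hours in edgeR's test, beside 1.60% of all genes. Without the fold limit, an adjusted p of 0.05 or less was reached by 5 of 8 TGF-beta and SMAD genes, all higher. Of 6 glucocorticoid receptor targets, 1 was higher and 4 were lower by that measure. The shares of all genes were 6.85% higher and 3.47% lower, and the other lists held fewer such genes.

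**Figure D5:**
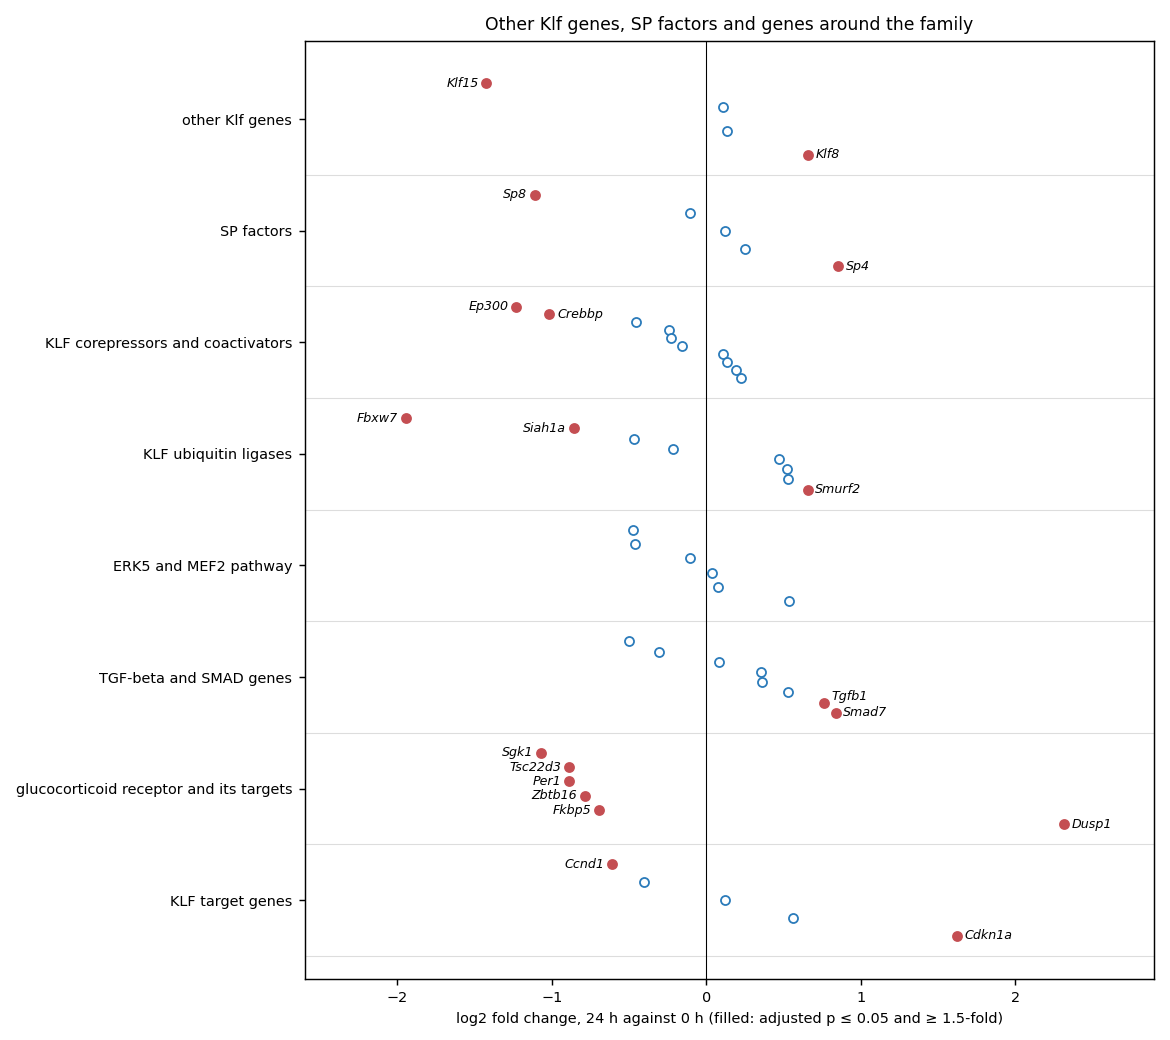
Log2 fold change at 24 hours against time 0 (x axis) of each tested gene in 8 lists around the family (rows), with filled, named points for genes past both limits and open points for the rest. Klf15, Sp8, Ep300, Crebbp, Fbxw7 and Sgk1 lie at -1.02 or lower, Dusp1 at 2.31, and no gene of the ERK5 and MEF2 pathway is filled.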

How the data were processed

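TruSeq mRNA libraries of 9 MyC-CaP samples were sequenced as paired-end reads. According to the submitters' processing notes and methods, reads were trimmed with cutadapt, aligned to GRCm38 with STAR and counted with featureCounts. The deposited table holds the authors' raw counts per gene, without normalization, and how its 15384 genes were chosen is not stated.

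Each pair of times (3 libraries each, grouped by labeled time) was fitted over the whole table in R 4.3.3 with edgeR 4.0.16: filterByExpr, TMM factors, the quasi-likelihood test and Benjamini-Hochberg adjustment. The study's own tool, DESeq2 (1.42.0 here), was an alternative. Genes with an adjusted p of 0.05 or less and at least 1.5-fold passed. CPM were TMM scaled over the 9 libraries. Errors of levels are SD, those of log2 fold changes SE, and counting floors (3 counts) cover counting error only. Exon lengths came from GENCODE M21, in which 15374 genes (99.93%) were found by identifier.

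The members and the 8 further lists were chosen with earlier results of these data known. All members are named, and of each list every gene that passed in any comparison where these were 6 or fewer (none passed in the ERK5 and MEF2 list). Some list genes that reached the adjusted p alone are named as well. Some genes of the lists are not reported here. Alternatives were DESeq2, limma-voom (limma 3.58.1), RLE, upper-quartile and total-count scaling, loess offsets for length and GC content (span 0.3) with and without the replicate number as a block, that block alone, no filter, a minimum of 10 counts per library, one fit of all 9 libraries, the adjusted p alone, each library left out in turn, and the longest transcript in place of the exon union. The fits were tested on simulated data.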

Additional observations from a re-analysis of the deposited data

Results flagged for a closer look

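For 3 members, the level at 24 hours differed from that at 12 hours in a direct test of the 2 times, with an adjusted p of 0.05 or less and at least 1.5-fold (edgeR, quasi-likelihood test, Benjamini-Hochberg adjusted). From 12 to 24 hours the log2 fold change of Klf2 was -2.41 (adjusted p = 5.6e-10), that of Klf13 was -0.99 (adjusted p = 7.7e-09) and that of Klf3 was -0.60 (adjusted p = 4.7e-08). In each of the 3 genes all 24-hour libraries were below all 12-hour libraries. Such a difference was found for 25.7% of all genes tested.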

How the results depend on the processing

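Of 110 values of the 10 members under 11 alternatives, 106 kept their direction and side of the limits at 12 hours, 103 at 24 hours and 100 from 12 to 24 hours. The number of members past both limits at 12 hours was 0 in all but the adjusted p alone (4). At 24 hours it was 4, but 2 with length and GC offsets, with and without the block (Klf9 -0.54 and Klf13 -0.55 were lost), and 9 with the adjusted p alone. With total-count scaling it was again 4, with Klf3 (-0.78) in place of Klf10 (0.46). From 12 to 24 hours it was 3, but 5 with total-count scaling (adding Klf9 -0.67 and Klf11 -0.62), 2 with upper-quartile factors (Klf3 -0.58), 1 with length and GC offsets, with and without the block (Klf3 -0.52, Klf13 -0.46), and 7 with the adjusted p alone. Leaving out 1 library gave 0 to 0, 4 to 4 and 2 to 3 members. Total-count scaling moved the median log2 change of all genes to -0.238 at 24 hours against time 0 and -0.219 against 12 hours, and relative to that shift Klf10 was at 0.70 and Klf2 at -2.70 against time 0. Of all genes at 24 hours, 1374 were higher and 1924 lower with TMM, 698 and 3008 with total-count scaling, and 1456 and 1454 with length and GC offsets; from 12 to 24 hours these were 1184 and 1740, 484 and 2830, and 1285 and 1249. The sign reversed, without passing the limits, for Klf5 at 12 hours (upper-quartile -0.01033, total counts -0.01619, offsets -0.02574, offsets with the block -0.02493, 1 library left out -0.02374 to 0.0295), Klf16 at 12 hours (-0.01404 to 0.0633 with 1 library left out), Klf5 at 24 hours (total counts -0.124), and, from 12 to 24 hours with total counts, Klf4 (-0.04905), Klf5 (-0.1077) and Klf10 (-0.08625). With the longest transcript in place of the exon union, the summed level was 189.5, 194 and 158.2 CPM per kilobase at 0, 12 and 24 hours, and the order of Klf3, Klf5, Klf10 and Klf16 changed. Same-numbered libraries did not deviate together (correlations of -0.102 to 0.0569 over 9 pairs). The labels do not say whether wells of the same number were handled together, and low correlations cannot decide it. The replicate block gave 0, 4 and 3 members and changed no member call. Of the 19 further genes followed at 24 hours, 12 passed both limits in every alternative. Apart from the effect of the limits themselves, the cause of these changes was not tested. At 107 to 117 counts, Klf2 at 24 hours is the member with the fewest reads.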
